A study of Mus musculus with 9 samples.

Results

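Potassium channel genes were taken from the cardiac transcriptomes of transgenic and control mice by their names: every gene name that begins with Kcn, goes on with letters and ends in a number (with or without a letter), leaving out 5 antisense or opposite-strand names. The deposited tables held 93 such genes among 41710 gene names. Of these 93, 59 had a mean of 10 or more reads per library in any group and are reported here, and 34 did not reach that level. Whole hearts of 8-month-old male mice on the FVB/N background were compared, with 3 libraries per group, each from the heart of 1 mouse according to the series' design. Tg-RKIP mice carry an RKIP (Pebp1) transgene that the alpha-myosin heavy chain promoter drives in the myocardium, and they developed signs of heart failure per the study. Mice labelled Tg-GRK2 are described as GRK2-transgenic, with no promoter given in the sources used here, and FVB controls carry no transgene. The question addressed was how the cardiac transcript levels differed between each transgenic group and the controls.

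Potassium channels let potassium leave or enter the cell down its gradient, and in heart muscle they end the action potential and hold the resting potential. In the mouse ventricle, repolarisation rests mainly on the transient outward currents and on fast-activating delayed rectifier currents of voltage-gated channels, while inward rectifiers hold the resting potential and two-pore channels carry background current. Channels opened by acetylcholine, by a fall in ATP or by calcium act beside these, and auxiliary and electrically silent subunits change the gating and trafficking of the pore-forming subunits.

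The labels were first checked on the targeted genes. Reads of Pebp1 numbered 255727, 321666 and 252196 in Tg-RKIP, whereas FVB had 7140 to 8446. Grk2 had 1468, 1460 and 1765 reads in the Tg-GRK2-labelled libraries against 1302, 1589 and 1341 in FVB (log2 fold change 0.05, adjusted p = 0.354 in edgeR), so this group is named by its label throughout. Libraries held between 25458108 and 33447654 reads. Mitochondrially encoded genes took 11.7% ± 0.156 of the reads in Tg-RKIP, 22.6% ± 0.299 in the Tg-GRK2-labelled libraries and 23.1% ± 0.158 in FVB (SD, n = 3 each). Fold changes are given on reads scaled by the trimmed mean of M-values (TMM), which takes most genes as unchanged and so centres them near 0. The median log2 fold change of all 15504 genes tested was 0.0085 between Tg-RKIP and FVB. With mitochondrially encoded genes left out of TMM, this median was 0.013. Scaling to the library size alone moved that median to 0.38, and a log2 value of Tg-RKIP against FVB would then lie higher by about that shift. For the Tg-GRK2-labelled libraries against FVB, going from TMM to library size moved the median only from -0.0023 to 0.0097. Which of these scalings is right was not tested.

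Potassium channel genes together summed to 563 ± 4.55 TPM in Tg-RKIP, 667 ± 6.74 TPM in the Tg-GRK2-labelled libraries and 618 ± 1.57 TPM in FVB (SD, n = 3 each). Per transcript length, the leading member in all groups was Kcnip2, the cytosolic partner of the channels of the fast transient outward current, with 152 ± 1.17 TPM (reads per transcript length, brought to the same total in each library; ± gives the SD of 3 libraries for each TPM value) in FVB. It was followed in FVB by the two-pore channel gene Kcnk3 with 97.7 ± 0.851 TPM and by Kcnj11, the pore of the ATP-sensitive channel of heart muscle, with 65.3 ± 0.827 TPM. Next came Kcnj3, Kcng2, Kcnj5, Kcnh2, Kcnq1, Kcnj8 and Kcnd2, with mean levels from 43.4 down to 15.2 TPM. Among the neighbours in this order of 10, the FVB libraries of Kcnq1 and Kcnj8 overlapped and those of the other neighbours did not. In Tg-RKIP, Kcnd2 stood at rank 16 among the members with 5.56 ± 0.0721 TPM, and Kcnj3 at rank 6 with 21.3 ± 0.757 TPM.

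**Figure D1:**
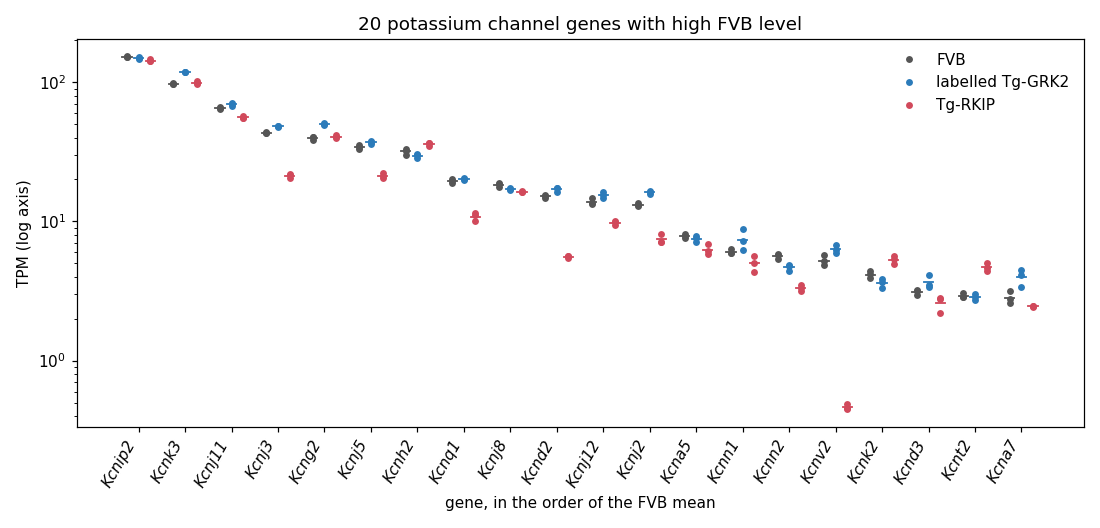
Levels in TPM, on a log axis, of 20 potassium channel genes with high FVB means, with 1 point per library and a bar at each group's mean (n = 3). Among these, Kcnv2 shows the widest gap between Tg-RKIP and FVB, with 0.465 TPM in Tg-RKIP against 5.23 TPM in FVB, and Kcnip2 leads in each group.

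Between Tg-RKIP and FVB, most of the leading members of heart muscle were lower in Tg-RKIP, while others, among them Kcnj14, Kcne4 and Kcna4, were higher. Of the 59 reported members, 58 passed the filter on low counts (Kcne3 did not), and 28 of them were lower and 13 higher, with 17 not past the threshold. Over all 15504 genes tested, 37.1% were lower and 36.8% higher, and 73.9% were called in either direction. The median log2 fold change of the 58 members was -0.39, against 0.0085 for all genes, and it was -0.02 when scaled to library size (0.38 for all genes) and 0.08 by limma on TPM with no filter (0.23 for all genes). At a log2 fold change of 1 or more, 13 members were lower and 5 higher (16.4% of all genes reached that size in either direction). A test for a fold over 1.5 (edgeR glmTreat) called 5 members higher and 16 lower, against 12.7% and 10.9% of all genes. The scaled reads of both groups did not overlap for 42 of the 58 members, against 75.7% of all genes. Scaled to the library size alone, 23 of the 28 lower calls and all 13 higher calls remained. On the TPM scale, by limma on log2(TPM + 0.1) with no filter on low TPM, 18 of the 28 lower calls remained, 9 were no longer past the threshold and 1 (Kcnh2) turned to higher, while all 13 higher calls remained. With only the most abundant transcript of each gene counted, 25 of the 28 lower and 8 of the 13 higher calls remained.

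By role, all 11 inward rectifiers tested differed between Tg-RKIP and FVB, with 8 lower and 3 higher. Of these 3, Kcnj6 reached the reporting level only in Tg-RKIP. Over all genes tested, 73.9% were called, 37.1% lower and 36.8% higher, and the counts by role stand beside these shares. Of 21 voltage-gated alpha subunits, 12 were lower and 2 higher, and of 4 silent subunits 2 were lower and 1 higher. Of 9 auxiliary subunits, 1 was lower and 4 higher. Of 6 two-pore channels 2 were lower and 1 higher, and of 7 calcium- or sodium-activated channel genes 3 were lower and 2 higher. Median log2 fold changes ran from -0.92 for the inward rectifiers and -0.53 for the voltage-gated alpha subunits to -0.13 for the two-pore channels, against 0.0085 for all genes. These medians hold for TMM-scaled reads. Scaling to library size moved the median of all members from -0.39 to -0.02.

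Markers of the cell types of the heart moved as well. Of 8 cardiomyocyte markers, 6 were lower and 1 higher in Tg-RKIP (median log2 fold change -0.92), while their summed level was 40333 to 40796 TPM in Tg-RKIP and 40811 to 41587 TPM in FVB. All 6 fibroblast markers were higher, with sums of 2271 to 2286 TPM against 884 to 919 TPM, and so were all 6 macrophage markers (369 to 377 against 141 to 145 TPM). Of 9 smooth muscle and pericyte markers, 6 were higher and 2 lower, with sums of 915 to 938 TPM against 456 to 474 TPM. Of 6 endothelial markers 3 were higher and 3 lower, and of 4 tested Schwann cell and neuron markers 3 were higher. Among 4 atrial and 4 tested pacemaker markers, 3 and 3 were lower and 1 and 1 higher. All 4 white adipocyte, 2 brown adipocyte and 4 cartilage markers were higher, the last with sums of 354 to 361 TPM against 13.3 to 14.7 TPM, and the airway markers Scgb1a1 and Scgb3a2, which had no read in FVB, had 388 to 510 and 61 to 67 reads in Tg-RKIP and 1085 to 1284 and 122 to 176 in the Tg-GRK2-labelled libraries. The part of these cell types in the channel results was not tested, and in whole hearts fewer cells of a type and less RNA per cell cannot be told apart.

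**Figure D2:**
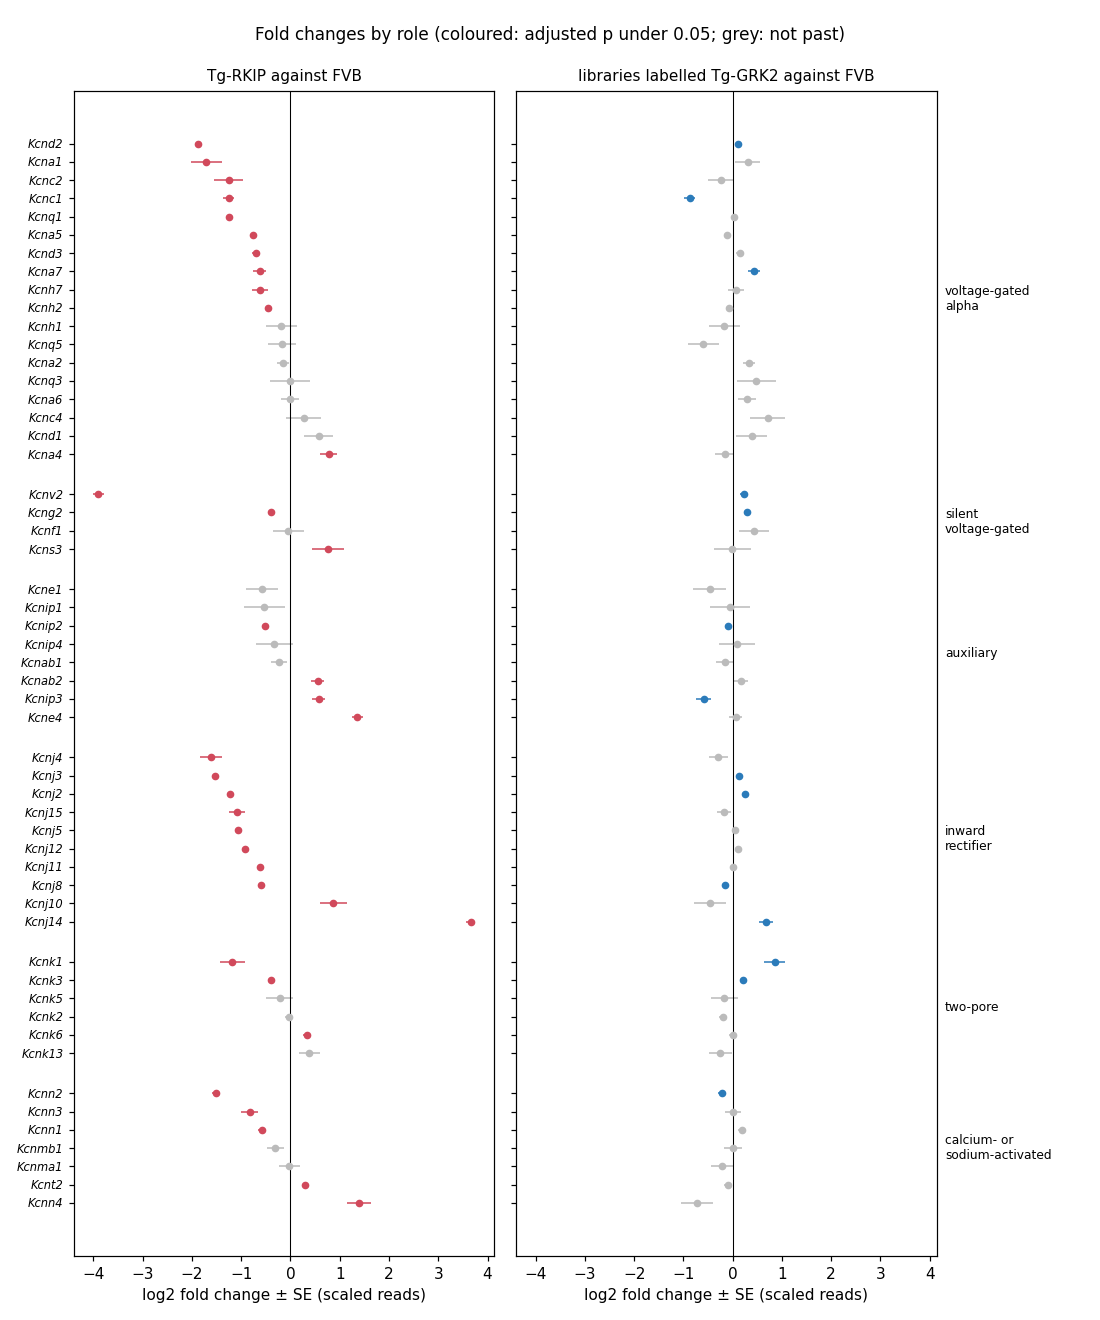
Log2 fold changes of scaled reads with their standard errors, from edgeR, for 53 members grouped by role, in Tg-RKIP against FVB (left) and in the Tg-GRK2-labelled libraries against FVB (right), with members past an adjusted p of 0.05 in colour. Kcnv2 lies farthest to the left and Kcnj14 farthest to the right in Tg-RKIP, and most values in the right panel lie nearer to 0. Kcnj6 and Kcne1l, with few reads in FVB, are among those not drawn.

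The fast transient outward current is formed by Kcnd2 and Kcnd3 with the calcium-binding auxiliary subunit Kcnip2. Scaled reads are reads brought to the mean TMM-scaled library size and are listed in the order of replicates 1 to 3, and each log2 fold change is followed by its standard error and the adjusted p of edgeR's quasi-likelihood test. Kcnd2, at chr6:21215502-21729804 on the plus strand (GRCm39) with a single transcript in the tables, had 454, 448 and 462 scaled reads in Tg-RKIP, 1727, 1808 and 1841 in the Tg-GRK2-labelled libraries and 1693, 1624 and 1677 in FVB. All Tg-RKIP libraries lay far below the other 6, and the decrease was larger than the spread between replicates (log2 fold change -1.87 ± 0.04, adjusted p = 1.78e-20). Kcnd3 was lower to a lesser extent, with 304, 295 and 236 scaled reads in Tg-RKIP against 466, 467 and 430.5 in FVB (-0.70 ± 0.09, adjusted p = 2.92e-07), but it was not past the threshold by limma on log2(TPM + 0.1) (-0.26, adjusted p = 0.0588). Kcnip2 had 4839.5, 5028 and 5004 scaled reads in Tg-RKIP against 6954, 7012 and 7214 in FVB (-0.51 ± 0.02, adjusted p = 2.55e-15), and its groups did not overlap. Kcna4, the pore of the slow transient outward current, went the other way, with 82.8, 76.3 and 72.4 scaled reads in Tg-RKIP against 39.5, 51.4 and 43.9 in FVB (0.77 ± 0.17, adjusted p = 0.000375). Kcnip3, a relative of Kcnip2 that is also known as a calcium-regulated transcriptional repressor, was likewise higher, with 117, 161 and 156 against 105, 97.6 and 91.3 scaled reads (0.57 ± 0.13, adjusted p = 0.000579), a call that was lost with its most abundant transcript only (1.16, adjusted p = 0.0809 in edgeR).

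Kcnip2 (chr19:45780278-45804500, minus strand, GRCm39) has 11 transcripts in the tables, 3 of which held most of its reads. Kcnip2_4 and Kcnip2_5 begin at the same distal first exon and share an exon of 96 bases that follows it, and Kcnip2_5 has in addition an exon of 54 bases after that. Kcnip2_3 begins instead at a first exon of its own, chr19:45791815-45792013, and joins the others at the 125-base exon that follows. The coding part of the distal first exon (GRCm38, chr19:45815731-45815803, minus strand) and the exons that Kcnip2_3 lacks (chr19:45797091-45797186 and chr19:45796279-45796332) are shown from GENCODE M21, because the transcripts that hold them took a smaller share of the reads in Tg-RKIP. Capitals mark the start codon in the first sequence and the exon itself in the other ones, which carry 15 bases of each neighbouring exon.
Kcnip2 first exon of the distal start: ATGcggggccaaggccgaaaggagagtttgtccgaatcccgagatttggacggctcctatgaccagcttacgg
Kcnip2 96-base exon of the distal transcripts: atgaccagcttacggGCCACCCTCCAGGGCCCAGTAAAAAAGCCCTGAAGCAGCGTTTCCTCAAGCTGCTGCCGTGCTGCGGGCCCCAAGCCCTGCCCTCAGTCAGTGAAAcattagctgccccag
Kcnip2 54-base exon of the longest transcript: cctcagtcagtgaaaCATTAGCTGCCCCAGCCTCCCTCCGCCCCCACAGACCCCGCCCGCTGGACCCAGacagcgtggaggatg

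The transcript Kcnip2_3 took 57.6% ± 1.38 of the Kcnip2 reads in Tg-RKIP, 23.5% ± 3.27 in the Tg-GRK2-labelled libraries and 28.9% ± 2.58 in FVB (SD, n = 3 each). The distal transcript Kcnip2_4 took 22.1% ± 0.109, 46.0% ± 4.84 and 39.2% ± 1.71 in the same order, and Kcnip2_5 took 18.5% ± 1.23, 25.97% ± 1.84 and 28.3% ± 3.92. In TPM, Kcnip2_3 stood at 85.1 ± 3.17 in Tg-RKIP and 45.6 ± 4.35 in FVB, and Kcnip2_4 at 29.9 ± 0.482 and 56.6 ± 2.09. The summed level of the gene, 143 ± 2.68 TPM against 152 ± 1.17 TPM, hence held a higher value of the internal start and lower values of both distal transcripts. Reads of 50 bases fall mostly in exons that these transcripts share, and how the authors divided such reads is not stated in the sources used here, so the shares are given as a description with no test.

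Delayed rectifier currents of the mouse ventricle are carried in part by Kcna5, the pore of a fast component, and Kcna2. Kcna5 had 311, 263 and 279 scaled reads in Tg-RKIP against 476, 494 and 466 in FVB (-0.76 ± 0.07, adjusted p = 1.04e-09). Kcna2 had 116, 146 and 107 scaled reads against 119.6, 157 and 138, and its groups overlapped (log2 fold change -0.16, 95% interval -0.40 to 0.09, adjusted p = 0.269), although without Tg-RKIP replicate 2 it passed the threshold (log2 fold change -0.32).

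The slow and rapid delayed rectifiers of larger hearts are formed by Kcnq1 with Kcne1 and by Kcnh2. Kcnq1 (chr7:142660099-142980779, GRCm39) had 475, 531 and 553 scaled reads in Tg-RKIP against 1226, 1201 and 1265 in FVB, less than any other library (-1.24 ± 0.05, adjusted p = 2.88e-16). The antisense transcript gene Kcnq1ot1 lies across it and held 119 to 145 reads in Tg-RKIP and 80 to 110 in FVB. The use of strand in counting is not stated in the sources used here. Whether antisense reads were counted on Kcnq1 was not tested. Kcne1, its classic auxiliary subunit, had 13.2, 14.7 and 23.2 scaled reads against 19.7, 32.9 and 22.5, and the difference did not pass the threshold (-0.58 ± 0.32, adjusted p = 0.11) except without Tg-RKIP replicate 3 (log2 fold change -0.85, adjusted p = 0.0468). Kcne4, an auxiliary subunit that inhibits Kcnq1 channels, rose from 97.5, 143 and 88.9 scaled reads in FVB to 277, 289 and 289 in Tg-RKIP, with no overlap (1.36 ± 0.12, adjusted p = 7.97e-10). Kcne1l, an X-linked relative of Kcne1, had 19, 20 and 12 reads in Tg-RKIP against 1, 3 and 1 in FVB, a ratio of 7.89 with an exact 95% counting interval of 3.17 to 25.3. Kcne1l was reported only because of its reads in Tg-RKIP, so this ratio and interval are a description and no test. Of the cytosolic beta subunits, Kcnab2 was higher (0.55 ± 0.13, adjusted p = 0.000753), though with its most abundant transcript only the value was 0.01 and not past the threshold, and Kcnab1 did not pass the threshold (-0.24, 95% interval -0.56 to 0.08) except without FVB replicate 3 (-0.38). Kcnip1 and Kcnip4 did not pass it either.

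Kcnh2 (chr5:24524587-24556602, minus strand, GRCm39) was lower in scaled reads, with 1659, 1777 and 1591 in Tg-RKIP against 2284, 2288 and 2328 in FVB (-0.45 ± 0.03, adjusted p = 1.32e-10). In TPM it was higher, 36.0 ± 1.04 against 31.8 ± 1.47 (SD, n = 3 each), and its log2 fold change was -0.08 when scaled to library size alone and -0.07, not past the threshold, with its most abundant transcript only. The cause of this difference between scales was not tested. The long transcript Kcnh2_5 has 15 exons, 4221 bases and a coding sequence of 3486 bases, and the short transcript Kcnh2_4 has 11 exons, 3193 bases and a coding sequence of 2460 bases. The short form begins at a first exon of its own and shares the last 10 exons, and it is known to lack the amino-terminal PAS domain and to give channels that close faster. The coding parts of both first exons are shown from GENCODE M21 (GRCm38, chr5:24351208-24351283 and chr5:24329165-24329272, minus strand), because the shares of their transcripts differed between Tg-RKIP and FVB, with the start codons in capitals.
Kcnh2 first exon of the long transcript: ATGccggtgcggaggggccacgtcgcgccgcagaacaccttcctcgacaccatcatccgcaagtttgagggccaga
Kcnh2 first exon of the short transcript: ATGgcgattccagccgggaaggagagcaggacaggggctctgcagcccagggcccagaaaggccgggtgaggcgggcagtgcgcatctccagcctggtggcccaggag

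On the short transcript Kcnh2_4 lay 1163, 1680 and 1120 reads in Tg-RKIP and 1012, 1153 and 1006 reads in FVB. The long transcript Kcnh2_5 held 504, 661 and 437 reads in Tg-RKIP against 923, 1066 and 911 in FVB. The share of the short form was 67.8% ± 1.74 in Tg-RKIP, 47.3% ± 1.57 in the Tg-GRK2-labelled libraries and 51.5% ± 0.265 in FVB (SD, n = 3 each), so Tg-RKIP lay above both other groups. A further 4.49% ± 1.17 of the Kcnh2 reads in Tg-RKIP lay on the 741-base noncoding transcript Kcnh2_1, against 0.798% ± 0.816 in FVB and no read in the Tg-GRK2-labelled libraries.

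Other voltage-gated alpha subunits were read less often. Kcna1, known from axons, had 8.47, 8.07 and 13.5 scaled reads in Tg-RKIP against 34.8, 27.7 and 35.6 in FVB (-1.71 ± 0.31, adjusted p = 4.50e-05). Kcna7, a muscle-expressed relative, had 83.7, 85.1 and 85.9 against 127, 146 and 119.8 (-0.63 ± 0.13, adjusted p = 0.000176), with the Tg-GRK2-labelled libraries above both at 201, 184 and 151. The Kcna7 call was lost when scaled to library size (-0.25, adjusted p = 0.0777 in edgeR) and by limma on log2(TPM + 0.1) (-0.19, adjusted p = 0.153). Kcnc1, a pore of fast-spiking neurons, had 68.7, 69.7 and 82.0 scaled reads in Tg-RKIP, 85.7, 98.0 and 102 in the Tg-GRK2-labelled libraries and 174, 171 and 179 in FVB, so both transgenic groups lay below the controls (-1.25 ± 0.12, adjusted p = 2.38e-09 in Tg-RKIP). Kcnc2 and Kcnh7 were also lower (-1.26 and -0.61), Kcnh7 not when scaled to library size (-0.24) and Kcnc2 not with its most abundant transcript only (-0.99), and Kcna6, Kcnc4, Kcnd1, Kcnh1, Kcnq3 and Kcnq5 did not pass the threshold.

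Silent subunits form no channel alone and change the gating of the pores they join. Kcnv2 (chr19:27299988-27314579, plus strand, GRCm39) showed the deepest decrease of all members. It had 39, 54 and 38 reads in Tg-RKIP, 653, 555 and 679 in the Tg-GRK2-labelled libraries, and 449, 545 and 522 in FVB. After scaling, the Tg-RKIP libraries stood at 36.7, 39.6 and 36.7, far below every other library (-3.90 ± 0.11, adjusted p = 9.93e-19). Kcng2, the silent subunit with the highest level in these hearts, had 1835, 1755 and 1764 scaled reads in Tg-RKIP, 2936, 2791 and 2831 in the Tg-GRK2-labelled libraries and 2369, 2362 and 2280.4 in FVB (-0.39 ± 0.03, adjusted p = 1.12e-10 in Tg-RKIP). In TPM, Kcng2 stood at 40.6 ± 1.27 in Tg-RKIP and 39.7 ± 1.28 in FVB, and scaled to library size its log2 fold change was -0.02. Kcns3 had 15.1, 26.4 and 16.4 scaled reads against 9.29, 11.3 and 14.2, with a log2 fold change of 0.76 that was no longer past the threshold by DESeq2 (0.75) or without any single library except Tg-RKIP replicates 1 and 3 and FVB replicate 3, with values from 0.44 (without Tg-RKIP replicate 2) to 0.76. Kcnf1 was not past it.

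Inward rectifiers of the resting potential, Kcnj2 and Kcnj12, were both lower. Kcnj2 had 610.5, 699 and 616 scaled reads in Tg-RKIP, 1754, 1838 and 1832 in the Tg-GRK2-labelled libraries and 1556, 1483 and 1507 in FVB, and the 3 groups did not overlap (-1.23 ± 0.05, adjusted p = 2.88e-16 in Tg-RKIP). Kcnj12 had 362, 362 and 344 scaled reads against 642, 716 and 656 (-0.92 ± 0.06, adjusted p = 2.64e-12), and the rarer Kcnj4 of the same subfamily 20.7, 13.9 and 21.2 against 56.9, 53.4 and 58.1 (-1.61 ± 0.22, adjusted p = 1.04e-06). A further member of that subfamily, Kcnj14 (chr7:45465884-45474206, minus strand, GRCm39), went the opposite way. It had 719, 899 and 734 reads in Tg-RKIP, 78, 81 and 88 in the Tg-GRK2-labelled libraries, and 49, 41 and 54 in FVB. Tg-RKIP lay above the other 6 libraries by more than any spread between replicates (3.66 ± 0.09, adjusted p = 3.91e-19), and per length its level rose from 0.956 ± 0.196 TPM to 16.0 ± 0.512 TPM, past those of Kcnj2 and Kcnj12 in the same hearts (7.43 ± 0.569 and 9.79 ± 0.359 TPM).

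The acetylcholine-activated channel is formed by Kcnj3 and Kcnj5, best known from atria and pacemaker cells. Kcnj3 had 1455, 1449.6 and 1387 scaled reads in Tg-RKIP against 4161, 4112 and 4175 in FVB (-1.53 ± 0.03, adjusted p = 2.76e-22), and Kcnj5 had 1635, 1513 and 1571 against 3292, 3220.3 and 3368 (-1.07 ± 0.03, adjusted p = 6.89e-18). In both, each Tg-RKIP library lay below each of the other libraries. Among 4 atrial markers measured beside them, 3 were lower and 1 (Myl4) higher in Tg-RKIP, with a summed level of 3117 to 3232 TPM against 1945 to 2021 TPM in FVB. Kcnj3 reads also shifted between its transcripts. Kcnj3_1 (chr2:55325982-55488157, plus strand, GRCm39) has 4 exons and a coding sequence of 1503 bases, while Kcnj3_3 has 2 exons, a coding sequence of 705 bases, and no counterpart of the third exon, which has 217 bases. That exon is shown from GENCODE M21 (GRCm38, chr2:55446826-55447042, plus strand), since the transcript that holds it took a smaller share in Tg-RKIP, with the exon in capitals between 15 bases of each neighbour.
Kcnj3 217-base exon: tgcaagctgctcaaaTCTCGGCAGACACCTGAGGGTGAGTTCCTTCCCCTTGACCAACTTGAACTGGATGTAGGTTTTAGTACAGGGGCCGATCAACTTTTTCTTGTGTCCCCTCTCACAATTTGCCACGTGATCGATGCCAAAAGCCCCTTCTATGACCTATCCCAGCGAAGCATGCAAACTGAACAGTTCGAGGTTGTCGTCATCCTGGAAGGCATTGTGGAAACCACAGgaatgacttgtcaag

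On Kcnj3_1 lay 247, 326 and 254 reads in Tg-RKIP, 2153, 2050 and 2661 in the Tg-GRK2-labelled libraries, and 1597, 1758 and 1591 in FVB. Kcnj3_3 held 1300, 1649 and 1183 reads in Tg-RKIP against 1986, 2244 and 1930 in FVB. The share of the 4-exon transcript was therefore 16.7% ± 0.874 in Tg-RKIP, 52.8% ± 2.52 in the Tg-GRK2-labelled libraries and 44.6% ± 0.629 in FVB (SD, n = 3 each). In TPM, Kcnj3_1 stood at 2.89 ± 0.0548 in Tg-RKIP and 16.7 ± 0.369 in FVB, and Kcnj3_3 at 18.5 ± 0.808 and 26.7 ± 0.224.

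ATP-sensitive channels combine the pores Kcnj11 or Kcnj8 with a sulfonylurea receptor. Kcnj11 had 2714, 2664 and 2655 scaled reads in Tg-RKIP against 4009.9, 4199.6 and 4123 in FVB (-0.62 ± 0.03, adjusted p = 2.27e-15). Kcnj8, the pore of vascular smooth muscle and pericytes, had 596, 598 and 619.7 against 869.8, 940.2 and 939 (-0.60 ± 0.04, adjusted p = 4.87e-11). Of the smooth muscle and pericyte markers, Rgs5 (-0.35) and Myh11 (-0.51) were also lower, while Acta2 (1.21) and Tagln (1.31) were among the 6 that were higher. Of the receptor genes, Abcc9 fell by 1.53 on the log2 scale and Abcc8 by 0.30 in Tg-RKIP (adjusted p = 2.07e-24 and 5.69e-07 in the same edgeR test). In TPM, Abcc9 stood at 45.2 ± 0.70 in Tg-RKIP and 97.6 ± 1.69 in FVB, whereas Abcc8 stood higher in Tg-RKIP, at 30.1 ± 0.472 against 16.7 ± 2.05 (SD, n = 3 each). A further 3 members, rarely read, complete the class. Kcnj10, known from glia, had 32.9, 37.4 and 37.6 scaled reads against 17.4, 25.7 and 15.4 (0.87 ± 0.27, adjusted p = 0.00699), and Kcnj15 was lower (-1.09), but not with its most abundant transcript only (-0.32). Kcnj6, a G-protein-gated relative of Kcnj3, had 13, 12 and 15 reads in Tg-RKIP, 0, 4 and 0 in the Tg-GRK2-labelled libraries, and 1, 0 and 0 in FVB, a ratio to FVB of 30.9 with an exact 95% counting interval of 5.24 to 1252. Kcnj6 was reported only because of its reads in Tg-RKIP, so this ratio and interval are a description and no test.

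Two-pore channels carry background current. Kcnk3, an acid-sensitive member, had 6126, 5837 and 5977 scaled reads in Tg-RKIP, 9207, 9026 and 9160.2 in the Tg-GRK2-labelled libraries and 7734, 7827 and 7968 in FVB, and the 3 groups did not overlap (-0.39 ± 0.02, adjusted p = 2.24e-13 in Tg-RKIP). Its TPM was 99.2 ± 2.92 in Tg-RKIP and 97.7 ± 0.851 in FVB, so the decrease in scaled reads was not seen in TPM. Kcnk1, a weakly rectifying member, had 13, 19 and 18 reads in Tg-RKIP, 66, 45 and 59 in the Tg-GRK2-labelled libraries, and 31, 30 and 27 in FVB. These 3 groups also separated, with Tg-RKIP lowest (-1.18 ± 0.26, adjusted p = 0.000364 against FVB). Kcnk2, a stretch-activated member, had 239.9, 256 and 225 scaled reads against 254, 261 and 226, with overlapping groups (log2 fold change -0.04, 95% interval -0.20 to 0.12). Scaled to library size alone Kcnk2 was higher in Tg-RKIP (0.34, adjusted p = 0.000666 in edgeR). Kcnk6 was higher (0.34), and Kcnk5 and Kcnk13 did not pass the threshold.

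Small-conductance calcium-activated channels link calcium to repolarisation, mostly in atria. Kcnn2 had 102, 94.7 and 99.4 scaled reads in Tg-RKIP against 271, 275 and 299 in FVB (-1.52 ± 0.09, adjusted p = 7.66e-13), Kcnn3 had 37.6, 37.4 and 40.5 against 63.9, 68.8 and 72.3 (-0.83 ± 0.17, adjusted p = 0.000229), and Kcnn1 was also lower (-0.58), though Kcnn1 was not past the threshold by limma on log2(TPM + 0.1) (-0.28). In each, the Tg-RKIP libraries lay below all FVB libraries. Kcnn4, the intermediate-conductance channel known from blood cells and fibroblasts, was higher, with 40.4, 50.6 and 41.5 against 16.3, 15.4 and 19.0 scaled reads (1.40 ± 0.25, adjusted p = 3.10e-05), but it was not past the threshold with its most abundant transcript only (1.38, adjusted p = 0.2 in edgeR). All 6 fibroblast and all 6 macrophage markers were higher in the same libraries. The large-conductance channel gene Kcnma1 and its smooth muscle subunit Kcnmb1 did not pass the threshold. Kcnma1 had 37.6, 33.0 and 32.8 scaled reads against 37.2, 32.9 and 35.6 (log2 fold change -0.03, 95% interval -0.45 to 0.39). Kcnmb1 had a log2 fold change of -0.31 (95% interval -0.65 to 0.04), and without Tg-RKIP replicate 3 it passed the threshold (-0.53, adjusted p = 0.0114 in edgeR). Kcnt2, a sodium-activated channel gene, was higher (0.29).

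**Figure D3:**
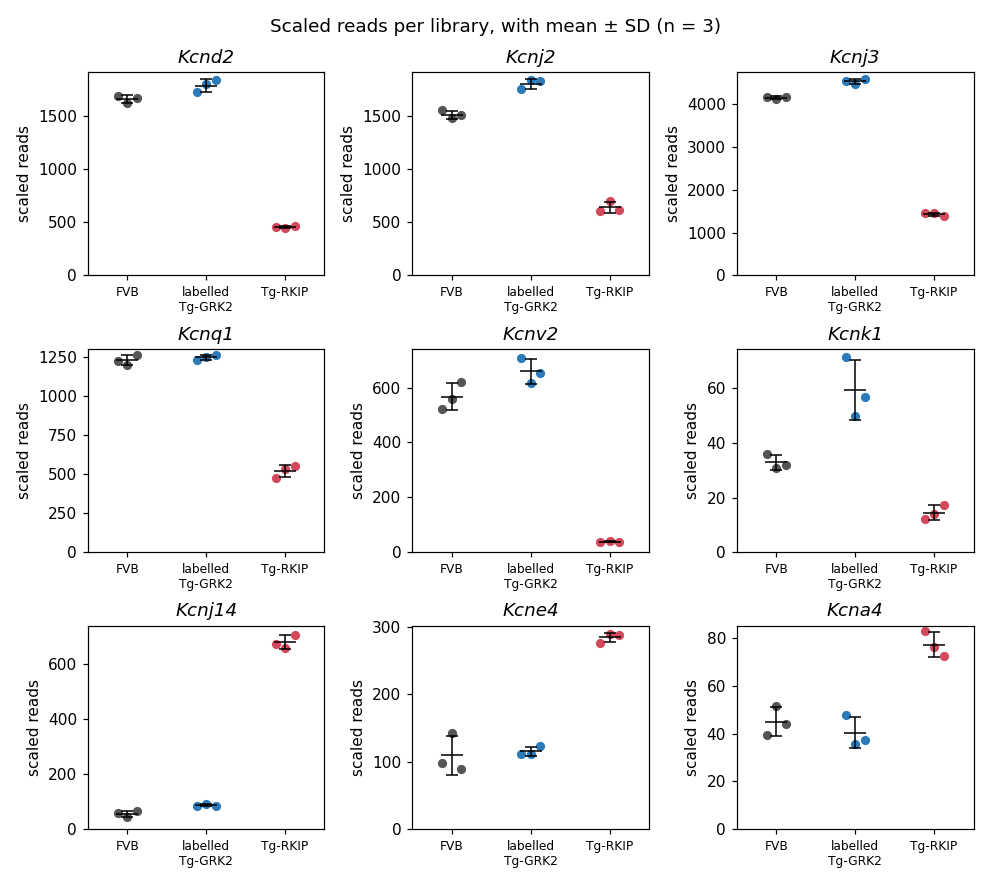
TMM-scaled reads of 9 members in each library (points), with the group mean and SD (n = 3), on axes that begin at 0. Tg-RKIP lies below the other 6 libraries for Kcnd2, Kcnj2, Kcnj3, Kcnq1, Kcnv2 and Kcnk1 and above them for Kcnj14, Kcne4 and Kcna4.

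Kcnn2 reads shifted between transcripts as well. Kcnn2_6, with 11 exons, held 20, 29 and 22 reads in Tg-RKIP, 137, 141 and 167 in the Tg-GRK2-labelled libraries, and 108, 155 and 152 in FVB. Kcnn2_9, with 7 exons and without a 419-base internal exon of Kcnn2_6, held 69, 60 and 55 reads in Tg-RKIP, 31, 34 and 32 in the Tg-GRK2-labelled libraries, and 99, 74 and 53 in FVB. Among all genes with at least 2 transcripts and a mean of 100 or more reads in every group, 18 were members. The share of the transcript that led in FVB did not overlap between Tg-RKIP and FVB for 7 of these 18, against 36.1% of 9828 such genes, and the difference was also 10 percentage points or more for 4 of them (Kcnip2, Kcnh2, Kcnj3 and Kcnn2), against 18.8% of all. The mean length of the transcripts that reads lay on was shorter in Tg-RKIP without overlap for 21.4% of these 9828 genes and longer for 17.3%.

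**Figure D4:**
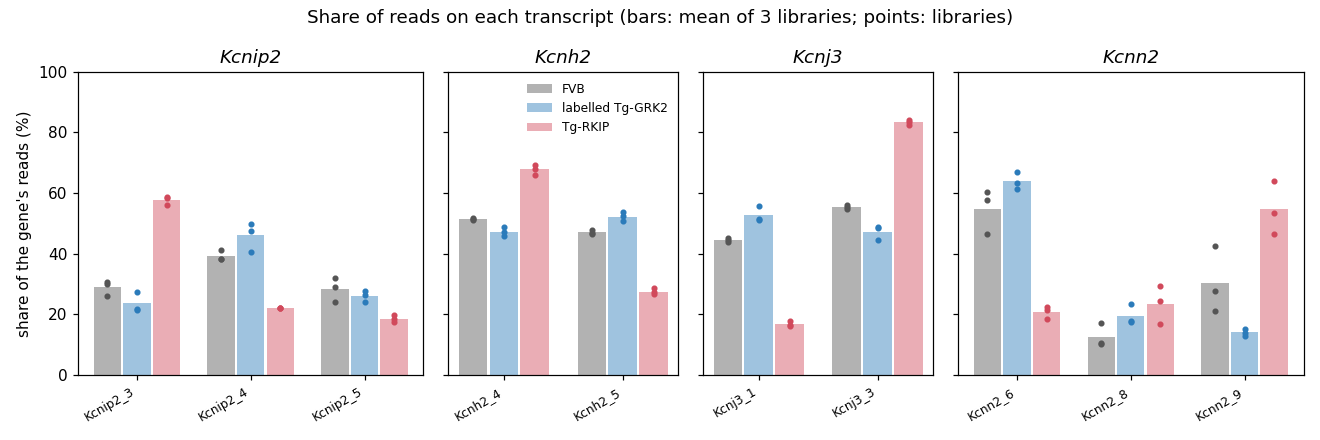
Share of the reads of Kcnip2, Kcnh2, Kcnj3 and Kcnn2 on each main transcript, in percent, with bars at the mean of 3 libraries and a point for each library. Tg-RKIP stands highest for Kcnip2_3, Kcnh2_4 and Kcnj3_3 and lowest for Kcnip2_4, Kcnh2_5, Kcnj3_1 and Kcnn2_6.

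Fold changes also moved with transcript length. Across the 15504 genes, the log2 fold change of Tg-RKIP over FVB had a Spearman correlation of -0.228 with transcript length, and medians ran from 0.172 in the shortest tercile to -0.183 in the longest. Among the 58 members the correlation was -0.119, the same sign, while the medians of -0.51 in the shortest tercile and -0.177 in the longest stood in the opposite order. For the Tg-GRK2-labelled libraries over FVB the correlation was 0.219 over all genes and 0.0206 among the members, and for Tg-RKIP over the Tg-GRK2-labelled libraries it was -0.283 and -0.137. These correlations are across genes, which share the same libraries, and are given as a description.

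In the Tg-GRK2-labelled libraries, fewer members were called against FVB. Of the 58 members tested, 11 were higher and 5 lower, against 12.2% higher and 12.2% lower over all genes, and 24.5% called in either direction. The median log2 fold change was 0.02 for the members and -0.0023 for all genes, and 28 members did not overlap between the groups, against 37.1% of all genes. No member was called with a log2 fold change of 1 or more (1.58% of all genes), and the test for a fold over 1.5 called 0 members, against 0.529% higher and 0.471% lower of all genes (2 members had an unadjusted p under 0.05, and DESeq2 without a minimum fold called 11 higher and 3 lower). The leading transcript's share did not overlap for 4 of 18 members, against 14.4% of 9828 genes, and for none of the 18 by 10 points or more, against 3.91%. Of the cell-type markers, all 4 of white adipocytes (median log2 fold change 1.27), 4 of 6 of fibroblasts and 3 of 6 of macrophages were higher. Of 9 smooth muscle and pericyte markers 4 were lower and 1 higher, and of 8 cardiomyocyte markers 4 were higher and 4 lower. Their part in the channel results was not tested. Among the higher members were Kcnk1 (0.85 ± 0.21, adjusted p = 0.00491) and Kcnj14 (0.68 ± 0.14, adjusted p = 0.00123). Kcna7 and Kcng2 had log2 fold changes of 0.44 and 0.29, and Kcnj2, Kcnk3, Kcnv2, Kcnj3 and Kcnd2 had values of 0.26, 0.22, 0.22, 0.13 and 0.11. The lower members were Kcnc1 (-0.87 ± 0.11, adjusted p = 5.30e-06), Kcnip3 (-0.59 ± 0.16, adjusted p = 0.00765), Kcnn2 (-0.21), Kcnj8 (-0.15) and Kcnip2 (-0.09). By DESeq2, Kcnn2 (-0.20, adjusted p = 0.208) and Kcnj8 (-0.14, adjusted p = 0.0745) were not past the threshold. By limma on log2(TPM + 0.1), Kcnip3 (-0.39), Kcnj8 (-0.10, adjusted p = 0.106) and Kcnip2 (-0.03, adjusted p = 0.497) were not. Kcnip2 stood at 0.15 with its most abundant transcript only, not past the threshold. With the most abundant transcript only, 6 of the 11 higher and 1 of the 5 lower calls remained, and Kcnk1 (0.71), Kcna7 (0.45), Kcnv2 (0.22), Kcnd2 (0.11), Kcnip3 (-1.05) and Kcnj8 (-0.17) were among those no longer past the threshold. Some of these calls rest on single libraries. Without replicate 1 of the Tg-GRK2-labelled libraries, Kcna7 (0.34) and Kcnv2 (0.17) were no longer past the threshold, and without FVB replicate 1 Kcnv2 was not (0.17). Kcnd2 lost its call without replicate 2 or 3 of the Tg-GRK2-labelled libraries (0.10 and 0.09) or FVB replicate 2 (0.09). Kcnj8 lost its call without replicate 2 of the Tg-GRK2-labelled libraries (-0.13) or without FVB replicate 2 or 3 (-0.13 each). Kcnn2 had an adjusted p of 0.0495 and lost its call without any single library except Tg-RKIP replicate 2, with log2 fold changes of -0.24 to -0.17. Kcna2 was just short of the threshold (0.33, adjusted p = 0.0564 in edgeR) and passed it without Tg-RKIP replicate 2 or 3 (0.33 each) or FVB replicate 2 (0.44). It also passed in edgeR when scaled to library size (0.34), with the size factors of DESeq2 (0.34) and with a replicate block (0.34). The same held with no filter other than a count above 0 (0.33) and with only the groups compared (0.33).

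Both comparisons with FVB share the same controls, so the transgenic groups were also compared directly. Between Tg-RKIP and the Tg-GRK2-labelled libraries, 30 of the 58 members were lower and 13 higher in Tg-RKIP, against 36.6% and 37.9% of all genes (74.5% in either direction). The median log2 fold change was -0.43, against 0.02 for all genes. It was -0.07 when scaled to library size (0.38 for all genes), where 23 of the 30 lower and all 13 higher calls remained, and -0.06 by limma on TPM with no filter (0.20 for all genes). In scaled reads 46 members did not overlap, against 76.4% of all genes. At a log2 fold change of 1 or more, 14 members were lower and 7 higher (16.8% of all genes in either direction), and the test for a fold over 1.5 called 18 lower and 8 higher, against 11.8% and 13.1%. The leading transcript's share did not overlap for 7 of 18 members, against 40.3% of genes, and differed by 10 points or more for 4, against 22.0%. Kcnv2 (-4.12 ± 0.10, adjusted p = 1.70e-19), Kcnk1 (-2.03 ± 0.23, adjusted p = 8.38e-08), Kcna1 (-2.02 ± 0.30, adjusted p = 3.11e-06) and Kcnd2 (-1.98 ± 0.04, adjusted p = 4.63e-21) were farthest below. Farthest above were Kcnj14 (2.98 ± 0.08, adjusted p = 1.69e-18) and Kcnn4 (2.12 ± 0.27, adjusted p = 3.21e-07), beside Kcnj6, whose reads are given above. Kcnj6 was reported only because of its reads in Tg-RKIP. Of the 55 tested members described here, 8 were lower in Tg-RKIP and higher in the Tg-GRK2-labelled libraries than in FVB and past the threshold in all 3 comparisons, against 6.24% of all genes, and 1 (Kcnip3) had the reverse, against 4.36%. Kcnmb1 did not pass the threshold here (-0.31) but did without Tg-RKIP replicate 3 (-0.54) or replicate 1 of the Tg-GRK2-labelled libraries (-0.45), and Kcnk2 passed it without Tg-RKIP replicate 3 (0.20), scaled to library size (0.52, adjusted p = 4.99e-06 in edgeR) and by limma on log2(TPM + 0.1) (0.54, adjusted p = 0.000212).

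Of 17 partner genes of potassium channels listed beside the members (receptors, scaffolds, anchoring proteins and regulators), 13 were tested. In scaled reads 8 were lower and 3 higher in Tg-RKIP than in FVB, against 37.1% lower and 36.8% higher of all genes. The mean TPM of 3 of these 8 lower genes stood higher in Tg-RKIP. In the Tg-GRK2-labelled libraries 4 were higher and 1 lower than in FVB, against 12.2% higher and 12.2% lower of all genes. Beside the sulfonylurea receptors, Akap9, which anchors protein kinase A to Kcnq1 channels, fell by 1.15 on the log2 scale in Tg-RKIP, Cav3, the caveolin of muscle, by 0.75 and the scaffold gene Dlg1 by 0.42. Their TPM lay closer together, with 22.6 ± 1.76 in Tg-RKIP against 24.6 ± 1.44 in FVB for Akap9, 38.6 ± 2.06 against 48.7 ± 2.12 for Cav3 and 27.7 ± 0.712 against 30.3 ± 2.04 for Dlg1. Irx3 and Irx5, genes of Iroquois transcription factors, were higher by 0.32 and 0.45 on the log2 scale (adjusted p = 9.37e-06 and 0.000141 in edgeR). The Kcnd-channel partners Dpp6 and Dpp10 had at most 20 and 4 reads in any library.

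Members near the reporting threshold were Kcnq3 and Kcnip1, just inside with means of 11 and 12 reads in their highest group, and Kcnh3 and Kcnt1, just outside with 9 and 8.67. Kcne3, reported but not tested, had 22, 17 and 5 reads in Tg-RKIP, 4, 6 and 9 in the Tg-GRK2-labelled libraries, and 4, 5 and 7 in FVB, so its groups overlapped. Of the 34 members below the threshold, 4 (Kcna10, Kcnh5, Kcnk16 and Kcnk18) had no read in any library. At these depths a count of 0 allows up to 3 reads per library.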

How the data were processed

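The authors deposited read counts per transcript (whole numbers, not normalized) and TPM values per transcript for 9 libraries of 50-base single reads. The submitters' processing notes name GRCm39. The aligner, the counting program, the use of strand and the handling of shared reads are not given in the sources used here. Transcript rows that carry the same gene name were added up, for counts and TPM alike. The deposited TPM equal those recomputed from counts and lengths to within 5.50e-06. The test was edgeR 4.0.16 under R 4.3.3 (TMM, filterByExpr, glmQLFit and glmQLFTest, all 9 libraries in 1 fit with a mean per group), with Benjamini-Hochberg adjustment over 15504 genes and a threshold of 0.05. Standard errors are the absolute log2 fold change over the square root of F. Scaled reads are counts brought to the mean TMM-effective library size. Alternatives used DESeq2 1.42.0 and limma 3.58.1. Scripts were tested on simulated data, where 13 of 154 calls were false (8.44%). Recovery was 49.2% for changes of 0.25 on the log2 scale, 78.1% for 0.585 and 89.4% for 1. The simulation changed 65, 64 and 66 of 15237 genes by these sizes, up and down. In the data 73.9% of genes were called between Tg-RKIP and FVB, so these rates do not describe that comparison. Replicate numbers did not pair the libraries. Counting intervals are exact (Clopper-Pearson) and cover counting error only. Named genes were those of the heart's main potassium currents and, for each of the 3 comparisons, the 6 largest and 6 smallest log2 fold changes among the calls; others are named only to fill out a class. 3 genes are not reported here. Members and lists were chosen with earlier results of these data known.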

Additional observations from a re-analysis of the deposited data

Results flagged for a closer look

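For 9 of the 55 tested members described, the difference from FVB had opposite signs in both transgenic groups, each past the threshold. The direct edgeR comparison of Tg-RKIP with the Tg-GRK2-labelled libraries was past it too. Opposite differences from the same controls add up there, so that call was nearly given and is no separate evidence. Of the 9, 8 were lower in Tg-RKIP and higher in the Tg-GRK2-labelled libraries than in FVB, a pattern that 6.24% of all 15504 genes showed, and 1 had the reverse, which 4.36% of all genes showed. Both comparisons share the FVB libraries. For the 8, log2 fold changes of Tg-RKIP over the Tg-GRK2-labelled libraries were -4.12 for Kcnv2, -2.03 for Kcnk1, -1.98 for Kcnd2, -1.66 for Kcnj3, -1.49 for Kcnj2, -1.06 for Kcna7, -0.68 for Kcng2 and -0.61 for Kcnk3. Kcnip3, higher in Tg-RKIP and lower in the Tg-GRK2-labelled libraries, had 1.16. Between Tg-RKIP and FVB, Kcna7, Kcng2 and Kcnk3 lost their calls when scaled to library size (adjusted p = 0.0777, 0.648 and 0.492 in edgeR), and on the TPM scale Kcna7 was not past the threshold and Kcng2 and Kcnk3 were not lower. Between the Tg-GRK2-labelled libraries and FVB, Kcnip3 (-0.39, adjusted p = 0.0748) and Kcnv2 (0.27, adjusted p = 0.0835) were not past the threshold by limma on log2(TPM + 0.1). With the most abundant transcript only, Kcnk1, Kcnd2, Kcna7, Kcnv2 and Kcnip3 lost that call and Kcnj3 changed sign (-0.10), and in a test for a fold over 1.5 none of the 9 was past the threshold there. Without a single library of these 2 groups, Kcna7, Kcnv2 and Kcnd2 lost it in some cases, as given above.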

How the results depend on the processing

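Counting error is widest for the rarely read members. The tests rest on the spread between the 3 libraries of a group, and this spread was small. The common coefficient of variation beyond counting error was 2.86%. Median squared differences between libraries of the same group were 1.37 to 1.52 times those of counting error alone. Small adjusted p values rest on this spread, and its source was not tested. Calls of members were compared under 22 other settings. For single named genes, 2120 of 2319 values kept direction and side of the threshold, 105 were no longer past it, 25 newly passed it, 20 changed sign with a call under at least 1 of the settings and 49 changed sign with a call under neither. Leaving out each library in turn gave 28 to 30 lower and 11 to 13 higher members between Tg-RKIP and FVB, 3 to 5 lower and 9 to 12 higher in the Tg-GRK2-labelled libraries, and 28 to 31 lower and 12 to 14 higher between the transgenic groups. Testing for a fold over 1.5 (edgeR glmTreat) gave 5 higher and 16 lower members between Tg-RKIP and FVB, 8 higher and 18 lower between the transgenic groups, and 0 and 0 in the Tg-GRK2-labelled libraries, where 2 had an unadjusted p under 0.05 and the edgeR test without a minimum fold gave 11 and 5 and DESeq2 11 and 3. By limma on log2(TPM + 0.1) or log2(TPM + 1), which shifted the median of all genes to 0.43 and 0.37, 15 members were lower between Tg-RKIP and FVB, 18 between the transgenic groups and 3 in the Tg-GRK2-labelled libraries. With no TPM filter these counts were 18, 19 and 2, with 7 higher in the Tg-GRK2-labelled libraries. Of the 13 higher calls between Tg-RKIP and FVB, 8 remained with the filter, where 5 were not tested, and all 13 remained without it. Over the 13478 genes tested with the filter (pseudocount 0.1), 8932 were higher and 1964 lower between Tg-RKIP and FVB. Between the transgenic groups these were 8536 and 2296, and in the Tg-GRK2-labelled libraries 1772 and 815. With the most abundant transcript only, 6 were higher and 1 lower there, 9 and 25 between Tg-RKIP and FVB, and 11 and 25 between the transgenic groups. The share of higher among the calls between Tg-RKIP and FVB was 13 of 41, and 16 of 39 when scaled to library size. Over all genes, 5709 calls were higher and 5751 lower, and 9710 and 2649 when scaled to library size.

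Values that changed sign with a call under either setting were on the TPM scale (pseudocounts 0.1 and 1; without the filter, the values for 0.1 were the same) Kcng2 (0.0304 and 0.0298), Kcnh2 (0.18 and 0.18), Kcnk2 (0.34 and 0.29) and Kcnk3 (0.0206 and 0.0204) in Tg-RKIP against FVB, and Kcnh2 (0.28 and 0.27) against the Tg-GRK2-labelled libraries. Scaled to library size Kcnk2 (0.34) did so against FVB. With no call under either scaling, Kcna2 (0.22), Kcnab1 (0.14), Kcnma1 (0.34) and Kcnmb1 (0.07) also turned positive there, as did Kcnab1 (0.29), Kcne1 (0.25) and Kcnmb1 (0.05) between the transgenic groups and Kcnn3 (0.01) in the Tg-GRK2-labelled libraries. With the most abundant transcript only, those with a call were Kcnip2 (0.15), Kcnj3 (-0.10) and Kcnn2 (0.0070) in the Tg-GRK2-labelled libraries against FVB and Kcnh2 (0.12) between the transgenic groups. The cause was not tested. With the replicate number as a block, 11 members were higher and 28 lower between Tg-RKIP and FVB, 12 and 4 in the Tg-GRK2-labelled libraries, and 12 and 30 between the transgenic groups. Same-numbered libraries did not deviate together (correlations of -0.041 to 0.042), so they share only a number.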
